A study of Mus musculus with 9 samples.

Results

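Klhl33 and Rnase9 are the outer members of a set of 7 neighbouring protein-coding genes on mouse chromosome 14, and both had far more RNA in Opn4 knockout retina than in wildtype retina at postnatal day 4. In order along the chromosome the 7 genes are Klhl33, Osgep, Apex1, Pnp, Pnp2, Rnase10 and Rnase9. They span 153 kb, from 50888582 to 51041869 on GRCm38, and are 7 of the 53280 genes in the count table. The stretch was picked because Klhl33 and Rnase9 rose in knockout, and the other 5 genes were taken as their neighbours. The levels of the 7 genes in both genotypes are therefore given as a description, with no p-value.

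The samples were pools of neural retina from Opn4 knockout pups (5 pools) and from wildtype littermates (4 pools), all from crosses of Opn4 heterozygotes. All pups were kept under standard lighting of about 300 lux and killed at postnatal day 4, between ZT6 and ZT7 (hours after lights on), and each pool held 4 retinas from 2 animals of 1 genotype. The sample titles give the genotype as knockout or wildtype and do not say whether the knockout is constitutive. The sources used here give neither the part of Opn4 that was removed, nor the strain of origin of the allele, nor the sex of the pups. Poly-A RNA of each pool was sequenced as 1 library of paired reads of 150 bases.

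Opn4 encodes melanopsin, the photopigment of intrinsically photosensitive retinal ganglion cells. It lies on the same chromosome, 16.3 Mb from the stretch. Opn4 measured 1.07, 1.82, 1.15, 1.42 and 1.35 CPM (counts scaled to library size) in knockout pools 1 to 5, against 11.8, 11.4, 12.0 and 11.6 CPM in wildtype pools 1 to 4. Every library matched its label. The count table held 65.5 M to 86.1 M counts per pool. The 10 retina markers summed to 4142 to 4441 CPM in knockout pools and 4048 to 4140 CPM in wildtype pools, so both groups carried the RNA of the labelled tissue. Since whole retina was measured, fewer cells of a type and less RNA per cell cannot be told apart.

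Apart from the pairs Pnp with Pnp2 and Rnase9 with Rnase10, the 7 genes do unrelated work. Klhl33 belongs to the Kelch-like family, whose best studied members are adaptors that bring substrates to the ubiquitin ligase of cullin 3. Osgep is the catalytic subunit of KEOPS, a complex that modifies an adenosine beside the anticodon of many transfer RNAs, and Apex1 is the main endonuclease that cuts DNA at sites that have lost a base. Pnp and its close copy Pnp2 encode purine nucleoside phosphorylase, which splits inosine and guanosine for purine salvage. Rnase9 and Rnase10 belong to the ribonuclease A family, which is clustered on this chromosome in the mouse, and both are best known from the epididymis.

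Of the 7 genes, 6 had enough counts to be tested by edgeR. Klhl33, Pnp, Pnp2 and Rnase9, 4 in all, passed an adjusted p of 0.05, each upward, while Osgep and Apex1 did not. Rnase9 met the filter on low counts through its knockout pools alone, with 128 to 331 counts there and 0 to 8 in wildtype pools. Of all 21150 genes tested, 1.34% passed the same rule upward in knockout, and 3.59% passed it in either direction. Every knockout pool lay above every wildtype pool for those 4 genes and for 3.92% of all genes tested, and the ranges of both genotypes stood apart in either direction for 8.29%. Since the stretch was picked on this contrast, nothing is read from these shares. Between Klhl33 and Pnp lie Osgep and Apex1, which did not pass in counts, although summed Osgep TPM was higher in every knockout pool. Rnase10, between Pnp2 and Rnase9, had 0 counts in all pools, so it cannot show whether the rise is unbroken there.

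**Figure D1:**
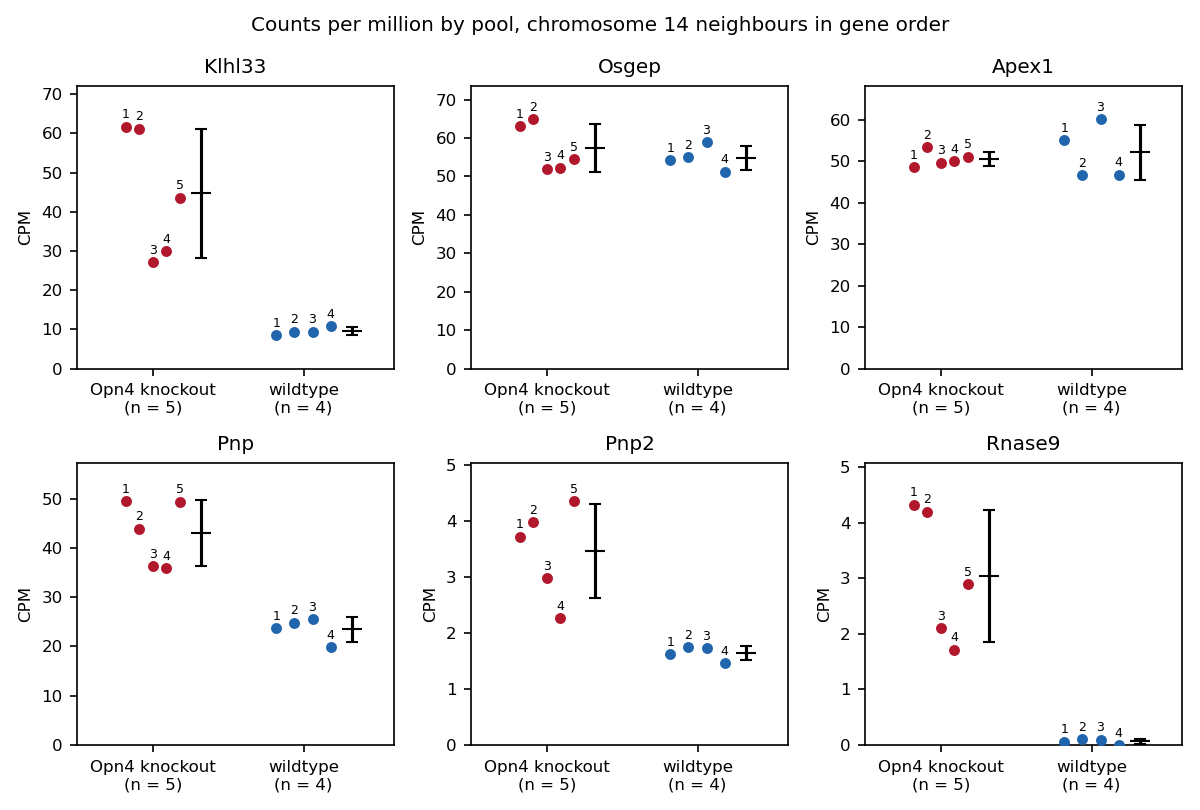
CPM (counts scaled to library size, linear axis from 0) of the 6 tested genes in each pool, with Opn4 knockout pools (red, left, n = 5) and wildtype pools (blue, right, n = 4) numbered by pool; black marks are the mean and SD. Klhl33, Pnp, Pnp2 and Rnase9 have no overlap between genotypes, Osgep and Apex1 do, and knockout pools 3 and 4 are the lowest knockout pools for each of the 4 genes that rose.

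Klhl33 (ENSMUSG00000090799.2, chromosome 14, 50888582 to 50897507, minus strand) stood at one end of the stretch. It had 61.7, 61.2, 27.2, 30.02 and 43.6 CPM in knockout pools 1 to 5, against 8.51, 9.43, 9.41 and 10.8 CPM in wildtype pools 1 to 4. The wildtype pools lay close together, the knockout pools were spread, and the genotypes did not overlap. The mean was 44.8 ± 16.5 CPM in knockout and 9.53 ± 0.941 CPM in wildtype (SD, n = 5 and 4), a 4.69-fold difference. The fitted log2 fold change, knockout minus wildtype here and throughout, was 2.23 (SE 0.23). Within knockout, the highest pool held 2.27 times the CPM of the lowest.

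These values rest on 1770 to 4732 counts per knockout pool and 692 to 869 counts per wildtype pool, so counting error is small beside the spread between pools. No other annotated gene is a near-identical copy of Klhl33. The longest Klhl33 transcript does hold, beyond its coding bases, stretches of at least 100 bases that match transcripts of 2505 other genes. The sources used here do not say how reads from such repeats were placed.

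Rnase9 (ENSMUSG00000052382.5, chromosome 14, 51038459 to 51041869, minus strand) closes the stretch at the other end. Its counts were 331, 325, 137, 128 and 247 in knockout pools 1 to 5, against 5, 8, 8 and 0 in wildtype pools 1 to 4. In CPM these were 4.33, 4.203, 2.11, 1.72 and 2.89 in knockout and 0.0580, 0.109, 0.0964 and 0 in wildtype. Rnase9 was thus detected in each knockout pool at a low level and was close to the limit of detection in wildtype, where the pool at 0 allows up to 3 counts, or 0.0372 CPM. The means were 3.05 ± 1.19 CPM in knockout and 0.0659 ± 0.0490 CPM in wildtype, a 46.3-fold ratio that rests on 21 wildtype counts in all. The fitted log2 fold change was 5.51 (SE 0.50). Rnase9 has no near-identical copy among annotated transcripts.

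Rnase10 (chromosome 14, 51007751 to 51010758, plus strand) is the nearest member of its family to Rnase9, with 27.7 kb between them. It had 0 counts in all 9 pools, which allows up to 3 counts per library, or 0.0348 to 0.0461 CPM depending on depth. In the TPM table (a measure of transcript abundance scaled by length) its 2 transcript rows summed to 0 to 0.0514 TPM in knockout and 0.0490 to 0.160 TPM in wildtype. No rise of Rnase10 was detectable at this depth beside that of Rnase9.

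Pnp (ENSMUSG00000115338.2, chromosome 14, 50931082 to 50965237, plus strand) measured 49.5, 43.9, 36.2, 35.8 and 49.3 CPM in knockout pools 1 to 5, against 23.7, 24.8, 25.5 and 19.8 CPM in wildtype pools 1 to 4. All knockout pools were above all wildtype pools. Means were 43.0 ± 6.72 CPM in knockout and 23.5 ± 2.55 CPM in wildtype, which is 1.83-fold, with a log2 fold change of 0.87 (SE 0.11). Pnp transcripts also hold stretches of at least 100 bases that match transcripts of 981 other genes. How reads from these stretches were placed is not known.

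Pnp2 (ENSMUSG00000068417.8, chromosome 14, 50955992 to 50964749, plus strand) lies within the annotated span of Pnp. It measured 3.72, 3.98, 2.98, 2.27 and 4.37 CPM in knockout pools 1 to 5, against 1.62, 1.74, 1.74 and 1.47 CPM in wildtype pools 1 to 4, again with no overlap. The means of 3.46 ± 0.839 CPM in knockout and 1.64 ± 0.130 CPM in wildtype differed 2.11-fold, with a log2 fold change of 1.08 (SE 0.19). The first annotated transcripts of Pnp2 and Pnp are 97.2% identical over 1084 bases. Pnp2 took 5.95 to 8.32% of the counts of both genes in knockout and 6.36 to 6.88% in wildtype, so the split between both copies is uncertain at the level of reads.

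Osgep (ENSMUSG00000006289.14, chromosome 14, 50906478 to 50924893, minus strand) lies 8.97 kb from Klhl33 on the same strand. It measured 63.0, 65.0, 51.9, 52.3 and 54.6 CPM in knockout pools 1 to 5, against 54.3, 55.1, 58.9 and 51.3 CPM in wildtype pools 1 to 4. Knockout pools 1 and 2 were the highest of all pools, and the other knockout pools lay among the wildtype pools. The log2 fold change of 0.06 (SE 0.07) was smaller than the spread between pools.

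Apex1 (ENSMUSG00000035960.14, chromosome 14, 50924968 to 50927139, plus strand) is divergent from Osgep. It had 48.6, 53.3, 49.6, 50.04 and 51.1 CPM in knockout pools 1 to 5, against 55.0, 46.6, 60.1 and 46.8 CPM in wildtype pools 1 to 4. The knockout pools lay inside the range of the wildtype pools, and the log2 fold change was −0.04 (SE 0.07). Some Apex1 exons overlap those of Pip4p1 on the other strand, and the sources used here do not say whether the libraries keep strand.

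Across genes, levels can be compared only per length, and TPM summed over the transcript rows of a gene was used for that. The order in knockout was Apex1 (145 ± 5.56 TPM), Osgep (138 ± 17.6), Pnp (32.4 ± 4.19), Klhl33 (24.5 ± 9.25), Rnase9 (6.92 ± 2.54), Pnp2 (1.83 ± 0.634) and Rnase10. In wildtype it was Apex1 (151 ± 12.3 TPM), Osgep (109 ± 8.10), Pnp (26.7 ± 3.27), Klhl33 (4.95 ± 0.517), Pnp2 (1.21 ± 0.190), Rnase9 (0.185 ± 0.0694) and Rnase10. Rnase9 and Pnp2 changed places between the genotypes. In knockout, Apex1 and Osgep had overlapping ranges, as did Pnp and Klhl33. Each other gene of the knockout order stood apart from its neighbour. In wildtype, only Rnase9 and Rnase10 overlapped among neighbours in the order.

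The TPM table lists each transcript of a gene as a row but without a transcript name, so rows are called here by their order within the gene. The 7 genes had 26 rows, of which 3 were at 0 in all pools and 17 were tested with limma on log2(TPM + 0.5). Of these 17 rows, 4 passed an adjusted p of 0.05, all upward, against 0.178% of all 48214 rows tested in either direction and 0.0539% upward. They were rows 3 and 4 of Klhl33, row 8 of Osgep and the single row of Rnase9. The Rnase9 row was tested through its knockout pools alone, since no wildtype pool reached a TPM of 1. Every knockout pool was above every wildtype pool in 4 tested rows and below in 2, against 2.17% and 2.2% of all rows tested. These rows come from the libraries on which the stretch was picked, and nothing is read from the shares.

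The rise of Klhl33 ran over both of its abundant rows. Row 3 measured 16.4, 15.7, 8.27, 6.45 and 12.2 TPM in knockout pools 1 to 5, against 1.71, 2.06, 1.34 and 2.14 TPM in wildtype pools 1 to 4 (log2 fold change 2.34, SE 0.27). Row 4 measured 14.8, 13.98, 6.66, 7.70 and 10.2 TPM in knockout, against 2.81, 2.86, 3.20 and 3.44 TPM in wildtype (1.58, SE 0.23). Neither row overlapped between the genotypes. Row 3 took 48.4 ± 3.65% of the TPM of the gene in knockout and 36.4 ± 4.68% in wildtype. Row 1, which was not tested, measured 2.08, 3.66, 0.343, 0.310 and 3.77 TPM in knockout, against 0, 0.253, 0 and 0 TPM in wildtype.

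Osgep had similar counts in both genotypes, but its TPM was spread differently over its transcript rows. Row 8, its most abundant row, measured 92.4, 103.9, 63.2, 59.9 and 71.7 TPM in knockout pools 1 to 5, against 28.5, 40.3, 32.4 and 29.9 TPM in wildtype pools 1 to 4. No knockout pool overlapped the wildtype range (log2 fold change 1.22, SE 0.17). Row 7 went the other way, with 21.3, 27.0, 24.5, 28.2 and 25.8 TPM in knockout, against 33.5, 32.7, 41.2 and 31.5 TPM in wildtype (−0.45, SE 0.10). Row 5 was also below wildtype in every knockout pool (−0.53, SE 0.21), and neither row 5 nor row 7 passed the test. Row 8 held 55.98 ± 6.89% of the TPM of Osgep in knockout and 30.1 ± 4.05% in wildtype. Without it, the other rows summed to 60.0 ± 4.08 TPM in knockout and 75.9 ± 7.06 TPM in wildtype.

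With all rows, summed Osgep TPM was 138 ± 17.6 in knockout and 109 ± 8.10 in wildtype, every knockout pool being higher, which the counts do not show. The call of row 8 was lost in 12 of 14 alternatives, although its sign held in all. One annotated Osgep transcript is 97.8% identical over 557 bases to a processed pseudogene elsewhere in the genome, and which row holds that transcript is not known.

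**Figure D2:**
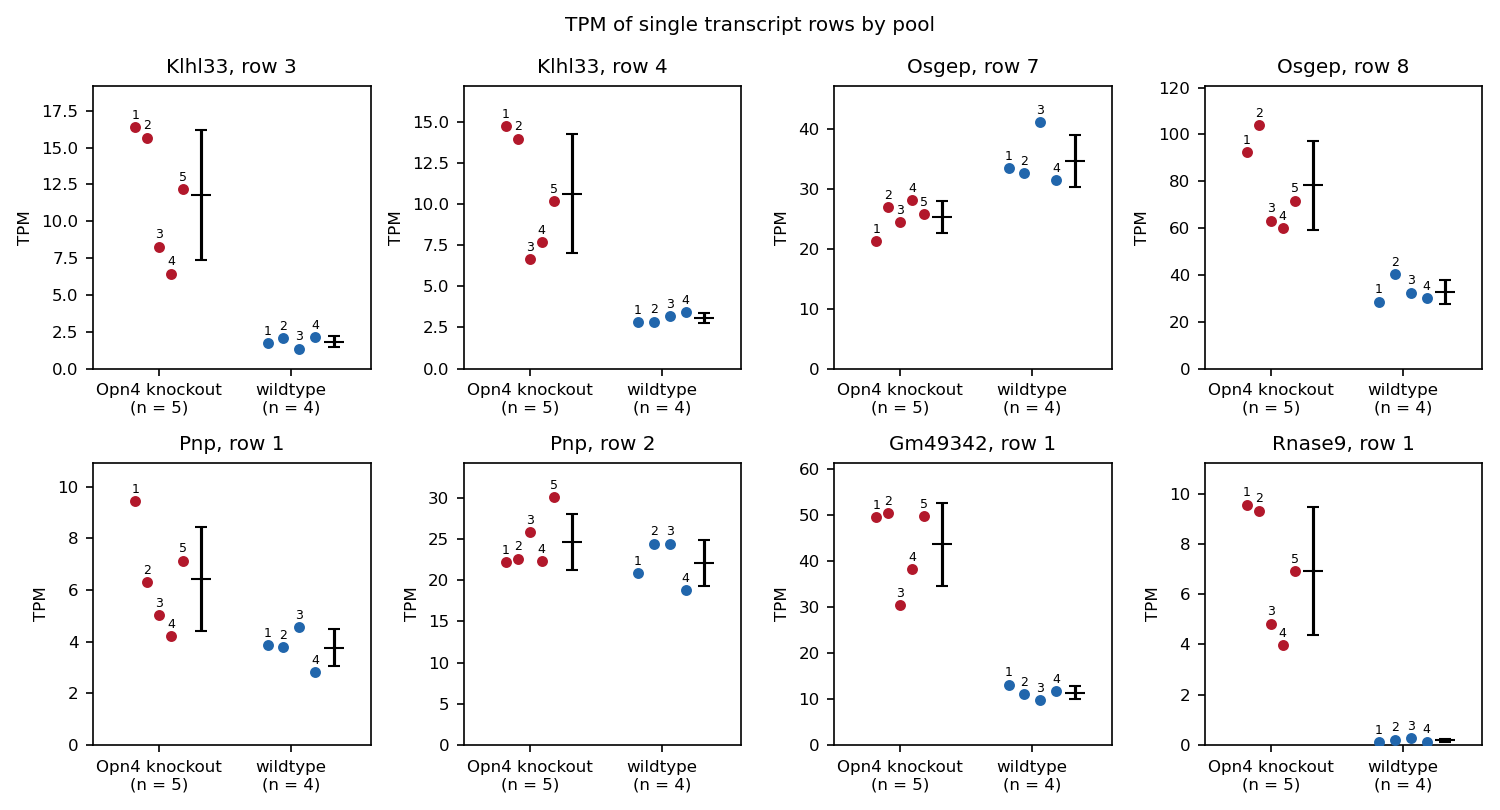
TPM (linear axes from 0) of 8 single transcript rows in each pool, knockout (red, left, n = 5) and wildtype (blue, right, n = 4), with the mean and SD in black. Klhl33 rows 3 and 4, Osgep row 8, Gm49342 and Rnase9 are higher in each knockout pool, Osgep row 7 is lower in each knockout pool, and the Pnp row 2 ranges overlap.

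Beside the 7 genes, the stretch holds another expressed coding gene that the rule did not name, Gm49342 (ENSMUSG00000021871.19, 50944517 to 50963136, plus strand). Its only annotated transcript has 6 exons and 750 bases, all coding. Of these, 718 bases lie in exons of Pnp, and the last 32 bases lie in an exon of Pnp2, entered at the same splice acceptor. It is thus annotated as a transcript that begins in Pnp and ends in Pnp2. The junction is shown because it is where the sequence of Gm49342 departs from that of Pnp. GRCm38 sequence from the GENCODE M21 transcripts is given 5′ to 3′ on the plus strand, with lower case for the last 30 bases before the splice and capitals for the first 32 bases after it. Pnp and Pnp2 are each shown by their first annotated transcript.

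Gm49342, exon 5 to exon 6: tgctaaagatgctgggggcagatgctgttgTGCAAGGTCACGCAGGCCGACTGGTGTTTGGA
Pnp, exon 5 to exon 6: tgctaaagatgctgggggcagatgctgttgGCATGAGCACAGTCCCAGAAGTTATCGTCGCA
Pnp2, exon 2 to exon 3: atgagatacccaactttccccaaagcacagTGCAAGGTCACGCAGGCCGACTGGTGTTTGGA

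The exon before the junction of Gm49342 is exon 5 of Pnp (50950832 to 50951022), and its last exon (50963105 to 50963136) is the start of exon 3 of Pnp2 (50963105 to 50963208). Pnp continues instead into its own exon 6 (50951404 to 50953412).

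**Figure D3:**
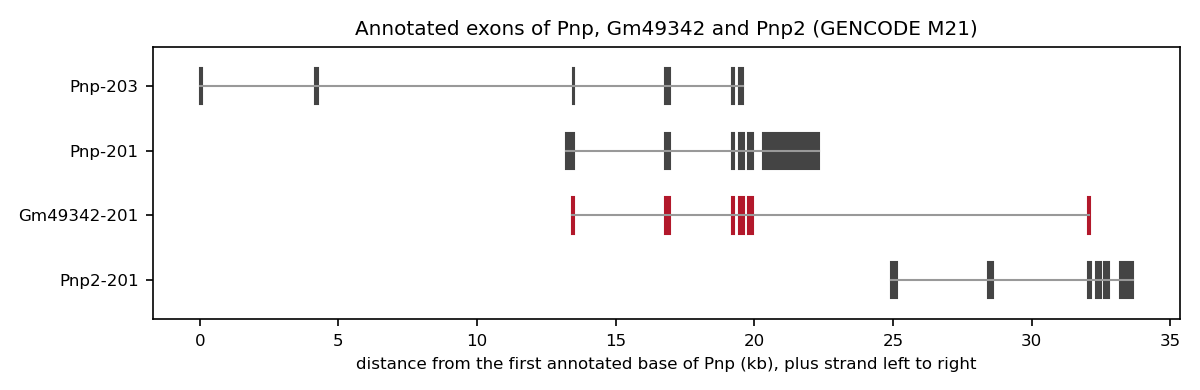
Annotated exons (boxes) and introns (lines) of 2 Pnp transcripts, of Gm49342 (red) and of Pnp2, drawn to scale in kb from the first annotated base of Pnp on the plus strand. The first 5 boxes of Gm49342 sit on exons of Pnp and the last sits on an exon of Pnp2.

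Most of the rise over Pnp and Pnp2 in TPM was assigned to Gm49342. It measured 49.5, 50.5, 30.4, 38.3 and 49.9 TPM in knockout pools 1 to 5, against 13.1, 11.1, 9.76 and 11.7 TPM in wildtype pools 1 to 4. The genotypes did not overlap, with means of 43.7 ± 9.02 TPM in knockout and 11.4 ± 1.41 TPM in wildtype, or 3.83-fold. On the log2(TPM + 0.5) scale the difference was 1.87 (SE 0.16; limma adjusted p = 0.00292). Without knockout pools 1 and 2 it was 1.73, with an adjusted p of 0.0572 by limma. Gm49342 lies in the stretch picked on this contrast and shares most of its bases with Pnp. Its p-values are therefore a description and no independent support.

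The summed rows of Pnp itself overlapped between genotypes. Its summed TPM was 33.1, 30.7, 31.7, 27.6 and 39.0 in knockout pools 1 to 5, against 25.4, 29.1, 29.7 and 22.7 in wildtype pools 1 to 4. Pnp2 had 2.84, 1.77, 1.48, 1.16 and 1.90 TPM in knockout, against 0.986, 1.16, 1.25 and 1.44 TPM in wildtype, also with overlap. In gene-summed TPM neither Pnp (log2 fold change 0.27) nor Pnp2 (0.41) passed by limma, whereas both passed in counts by edgeR, a different test.

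The 3 genes together measured 85.5, 83.0, 63.6, 67.0 and 90.7 TPM in knockout pools 1 to 5, against 39.5, 41.3, 40.7 and 35.8 TPM in wildtype pools 1 to 4, or 1.98-fold. That is close to the 1.83-fold of Pnp in counts. Gm49342 took 57.9, 60.9, 47.8, 57.1 and 55.0% of this sum in knockout, against 33.3, 26.8, 24.0 and 32.7% in wildtype. Of the 750 bases of Gm49342, 722 match Pnp at 99.9% identity, so the split of TPM between these genes is uncertain, and Gm49342 was matched in the TPM table only.

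Knockout pools 3 and 4 were the lowest knockout pools for each gene that rose. Relative to the wildtype mean, Klhl33 stood at 6.47, 6.42, 2.85, 3.15 and 4.58 times in knockout pools 1 to 5. Rnase9 stood at 65.7, 63.8, 31.98, 26.1 and 43.9 times, and Gm49342 at 4.34, 4.42, 2.66, 3.35 and 4.37 times. Pools 1 and 2 led for Klhl33 and Rnase9, while pool 5 was level with them for Gm49342. Pnp stood at 2.11, 1.87, 1.54, 1.53 and 2.10 times and Pnp2 at 2.27, 2.43, 1.82, 1.38 and 2.66 times, with pool 5 the highest for Pnp2. Osgep stood at 1.15, 1.18, 0.947, 0.953 and 0.994 times, so pools 3 and 4 were lowest and pools 1 and 2 highest there too, over a narrower range.

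**Figure D4:**
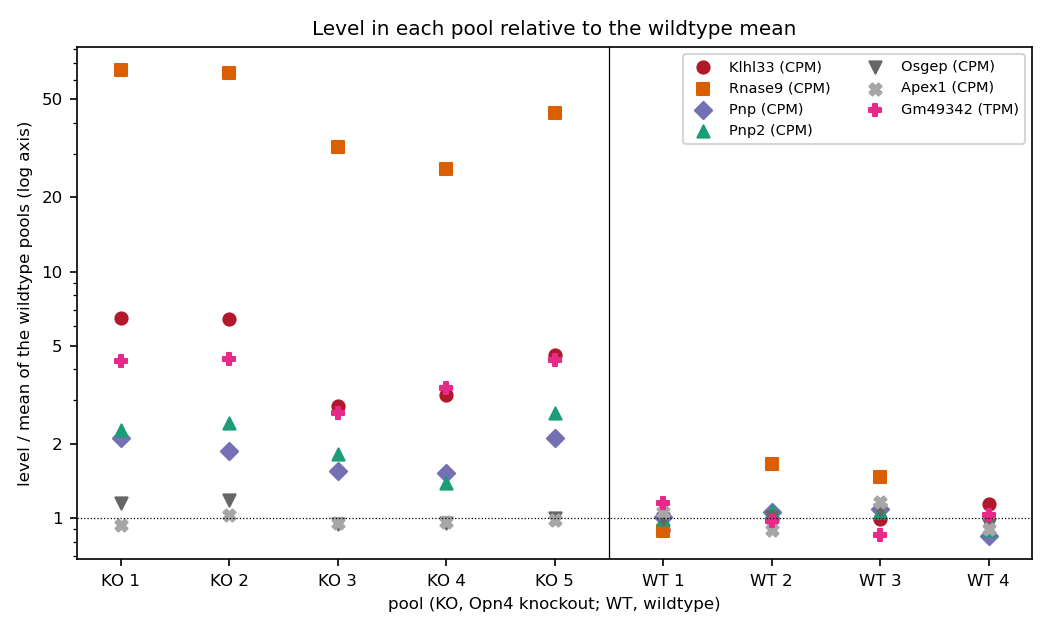
Level of 7 genes in each pool divided by the mean of the wildtype pools (log axis), with knockout pools (KO) left of wildtype pools (WT); CPM for 6 genes and TPM for Gm49342. Rnase9 in wildtype pool 4 is at 0 and is not drawn, and knockout pools 3 and 4 are lowest for Klhl33, Rnase9, Pnp, Pnp2 and Gm49342.

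Knockout pools 1 and 2 also held the most lens transcripts in sum, although single lens markers differed. The 8 lens markers summed to 14.8, 13.2, 7.63, 6.10 and 6.72 CPM in knockout pools 1 to 5, and to 5.76 to 6.29 CPM in wildtype pools. Cryaa, the lens alpha-A crystallin, measured 4.65, 3.28, 0.200, 0.0939 and 0.737 CPM in knockout and 0.0812 to 0.124 CPM in wildtype. Without knockout pools 1 and 2, the log2 fold change was 1.82 for Klhl33, 5.06 for Rnase9, 0.78 for Pnp and 0.96 for Pnp2, and Osgep and Apex1 both stood at −0.06. The 4 genes were also higher than in wildtype in the 3 knockout pools with less lens RNA. The lens sums of those pools, 7.63, 6.10 and 6.72 CPM, were in part still above the wildtype range. The part of lens RNA in the levels of the 4 genes was not tested in any pool.

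Other cell types that could carry these RNAs were looked at through their markers. Of 8 epididymal markers, Defb20, Lcn5, Lcn8, Lcn9 and Spint4 were at 0 in all pools, and the list summed to 0.0671 to 0.621 CPM in knockout and 0.0545 to 0.302 CPM in wildtype. Rnase11, another marker of that list, had 13, 22, 2, 5 and 10 counts in knockout pools 1 to 5. Its counts in wildtype pools 1 to 4 were 3, 0, 0 and 0. Adam7, the only marker of the list that was tested, went the other way, at 0.0818 CPM in knockout and 0.161 CPM in wildtype, and did not pass. The part of epididymal transcripts in the level of Rnase9 was not tested. The 8 markers of skeletal muscle summed to 10.3 to 12.2 CPM in knockout and 11.3 to 13.1 CPM in wildtype, and those of the pigment epithelium to 52.2 to 98.1 CPM in knockout and 71.5 to 93.3 CPM in wildtype. Red blood cell markers were lower in knockout, at 74.0 to 99.6 CPM, against 110.5 to 336.5 CPM in wildtype, with 5 of 7 genes passing the test downward, beside 2.25% of all genes. The part of blood in the values of the stretch was not tested.

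The tested genes next to the stretch on either side did not pass the test upward. The stretch contains 13 annotated genes, 7 of which were tested, and the only one of these outside the 7 named genes is Pip4p1, a phosphatidylinositol phosphatase listed in the counts as Tmem55b. Pip4p1 lies between Apex1 and Pnp and measured 88.9 CPM in both knockout and wildtype (log2 fold change 0.00; edgeR adjusted p = 0.994). Within 1 Mb on either side, 103 genes are annotated, many of them olfactory receptors without counts, and 18 were tested. Of these 18, 1 passed the test (5.56%), against 3.59% of all genes, and their median log2 fold change was −0.04, against 0.00 for all genes.

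The gene that passed was Vmn2r89, a vomeronasal receptor gene 493 kb from the middle of the stretch, at 1.95 CPM in knockout and 0.921 CPM in wildtype (log2 fold change 1.08, edgeR adjusted p = 0.0316). In 7 of the 9 cases with 1 pool left out it no longer passed (edgeR adjusted p up to 0.0872). Beside Klhl33, the nearest tested gene was Gm26782 at −0.45 (adjusted p = 0.0642), followed by Tep1, a telomerase-associated protein, at 0.10, and Parp2, a poly(ADP-ribose) polymerase of DNA repair, at 0.14. The nearest tested genes beyond Rnase9 were also of the ribonuclease A family, with Rnase12 at 0.11, Rnase4 at 0.16 and Ang (angiogenin) at −0.28. None of those 6 passed the test by edgeR. Gm26782 passed it downward by DESeq2 (adjusted p = 0.00533), by the robust fit of edgeR (0.0495), and without knockout pool 4 (0.0443) or wildtype pool 3 (0.0151). Rpph1, the RNA of ribonuclease P, had the lowest value at −3.59 (adjusted p = 0.0612), which rests on wildtype pool 4 with 6.58 CPM.

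Some genes beside the stretch had too few counts to be tested, so its ends cannot be placed by the tested genes alone. Rnase11, the first annotated gene beyond Rnase9 (51049451 to 51050163, minus strand) and a further ribonuclease A family member, had 13, 22, 2, 5 and 10 counts in knockout pools 1 to 5, against 3, 0, 0 and 0 in wildtype pools 1 to 4. It was detected in every knockout pool and in 1 wildtype pool, and the ranges overlapped. On the other side, beyond Tep1 and Parp2, Ccnb1ip1 had 23, 5, 0, 7 and 16 counts in knockout pools and 0, 4, 0 and 0 in wildtype pools. These 2 genes, singled out after their counts were seen, were given no test.

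**Figure D5:**
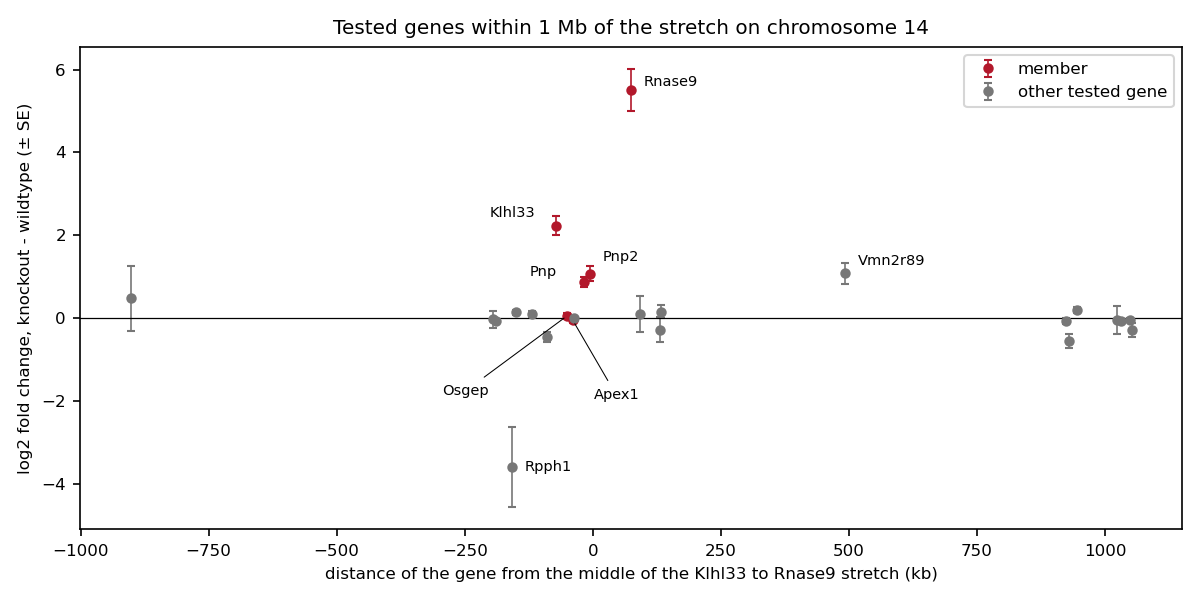
Log2 fold change (knockout minus wildtype, ± SE) of each tested gene against its distance in kb from the middle of the stretch, with members in red and other tested genes in grey. Rnase9, Klhl33, Pnp2 and Pnp stand above 0, Osgep and Apex1 lie at 0 between them, and of the flanking genes only Vmn2r89 passed the test.

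Of the other tested relatives of the 4 genes that rose, none passed the test, beside 3.59% of all genes tested, a share that gives few or no calls in lists of this size. In the Kelch-like and cullin 3 list, 39 genes were tested and Klhl33 alone passed, with a list median of 0.07. Of 5 tested genes of the ribonuclease A list, Rnase9 alone passed, and 11 genes of that list, Rnase10 among them, were at 0 in all pools. None of 6 tested KEOPS and transfer RNA modification genes passed, with a median of 0.01. Of 23 tested purine salvage genes, Pnp and Pnp2 passed and the other 21 did not, with a median of −0.01. The same median over all 21150 genes was 0.00.

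Base excision repair, the pathway of Apex1, held 5 genes that fell among 22 tested and none that rose, with a median of −0.06. Ung, the glycosylase that removes uracil from DNA, fell by 0.76 on the log2 scale (edgeR adjusted p = 0.000812), and Neil3, a glycosylase of oxidised bases, by 0.73 (0.000217). Mutyh, which acts on adenine paired with oxidised guanine, fell by 0.47 (0.0327), the DNA ligase Lig1 by 0.44 (0.00362) and the flap endonuclease Fen1 by 0.25 (0.0341). Of all genes tested, 2.25% passed downward. Apex1, at −0.04, was not among them. Ung, Neil3 and Lig1 kept their calls when any single pool was left out, while Mutyh and Fen1 each lost theirs in 7 of the 9 cases (edgeR adjusted p up to 0.108 and 0.101).

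The genes whose levels followed Klhl33 most closely over the pools lay on other chromosomes. Likeness was Pearson's r of log2 CPM over the 9 pools after the genotype means were removed, among 15739 genes with a mean of at least 1 CPM, and it is a description of these libraries without a test. For Klhl33 the 5 highest were Slc7a4 (0.978), Slc30a1 (0.967), Pnpla7 (0.961), Cryaa (0.960) and Gm43062 (0.954), and without knockout pools 1 and 2, with the means taken anew, they ranged from 0.837 to 0.989. Slc30a1, a zinc exporter, measured 45.0, 43.3, 32.9, 34.2 and 39.7 CPM in knockout pools 1 to 5, the same order of pools as Klhl33, but its log2 fold change was 0.07 (edgeR adjusted p = 0.766). Of these 5 genes, Cryaa alone passed the test between genotypes, and its call was lost without any single wildtype pool (adjusted p up to 0.117).

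For Rnase9 the highest were Psmg2 (0.983), Ripply2 (0.950), Mfsd11 (0.945), Pgap3 (0.936) and Fra10ac1 (0.935), none of which passed the test by edgeR. Rnase9 had 0 counts in wildtype pool 4, and all 5 of these genes had their lowest wildtype level in that pool, so the values rest partly on it. Without that pool they ranged from 0.857 to 0.969.

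Within the stretch, the likeness of members depended on single pools. Rnase9 and Klhl33 stood at 0.365 over all pools, at 0.921 without wildtype pool 4 and at −0.09 without knockout pools 1 and 2. Rnase9 stood at 0.807 with Pnp, 0.746 with Osgep and 0.624 with Pnp2, and without wildtype pool 4 at 0.794, 0.880 and 0.776 in that order. Klhl33 and Osgep stood at 0.798 over all pools and at 0.123 without knockout pools 1 and 2. Klhl33 stood at 0.660 with Pnp2 and 0.609 with Pnp, and at 0.624 and 0.508 without knockout pools 1 and 2. Apex1 stood at −0.02 with Klhl33 and at 0.399 with Rnase9, the second of which was −0.05 without wildtype pool 4. The genes named as most alike are the highest of 15739 values over few pools, and all values share the same libraries and depth.

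The authors' deposited table compares the same pools per gene with sleuth and gives the same signs for the large changes. Converted to log2 with knockout minus wildtype, the authors' deposited table has 3.82 for Rnase9 (q = 0.0645), 1.68 for Klhl33 (q = 0.144) and 1.48 for Gm49342 (q = 0.0645). For the other genes, the authors' deposited table has 0.48 for Pnp2 (q = 0.594), 0.25 for Osgep (q = 0.427), 0.20 for Pnp (q = 0.643) and −0.06 for Apex1 (q = 0.821). None of these 7 genes, Gm49342 and 6 of the members, is among the 255 of 17433 genes with a q under 0.05 in the authors' deposited table.

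The start sites of the genes that rose were set beside that of a neighbour that did not. RefSeq promoters on GRCm38.p6, from 250 bases before to 50 bases after a start, were matched for 6 of the 7 genes, all but Pnp2. They are printed 5′ to 3′ on the strand of the gene, with capitals for matches, on either strand, to 6 short motifs. The motifs are TATAAA (the TATA box), CCAAT (the CCAAT box), GGGCGG (a site of Sp1), CACGTG (an E-box), TGACTCA (a site of AP-1) and TAATCC (a site of photoreceptor homeodomain factors). No pair of matches overlaps in these 4 sequences.

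Klhl33, chr14:50897434-50897733, minus strand: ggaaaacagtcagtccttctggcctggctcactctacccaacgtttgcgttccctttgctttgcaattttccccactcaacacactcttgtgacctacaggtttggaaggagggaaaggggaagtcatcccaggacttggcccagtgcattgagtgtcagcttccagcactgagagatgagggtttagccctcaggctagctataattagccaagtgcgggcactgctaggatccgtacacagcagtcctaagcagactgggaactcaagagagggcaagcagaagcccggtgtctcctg
Rnase9, chr14:51041818-51042117, minus strand: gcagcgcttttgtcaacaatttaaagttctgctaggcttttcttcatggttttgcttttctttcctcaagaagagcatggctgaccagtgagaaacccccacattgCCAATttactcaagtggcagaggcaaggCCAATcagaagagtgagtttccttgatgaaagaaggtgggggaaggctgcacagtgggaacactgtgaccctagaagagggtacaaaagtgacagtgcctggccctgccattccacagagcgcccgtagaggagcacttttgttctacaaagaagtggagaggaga
Pnp, chr14:50944053-50944352, plus strand: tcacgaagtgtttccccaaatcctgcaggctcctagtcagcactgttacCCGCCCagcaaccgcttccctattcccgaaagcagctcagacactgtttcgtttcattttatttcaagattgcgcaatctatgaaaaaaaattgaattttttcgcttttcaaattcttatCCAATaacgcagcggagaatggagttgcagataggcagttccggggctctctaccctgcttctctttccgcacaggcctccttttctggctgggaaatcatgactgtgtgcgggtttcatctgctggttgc
Osgep, chr14:50924844-50925143, minus strand: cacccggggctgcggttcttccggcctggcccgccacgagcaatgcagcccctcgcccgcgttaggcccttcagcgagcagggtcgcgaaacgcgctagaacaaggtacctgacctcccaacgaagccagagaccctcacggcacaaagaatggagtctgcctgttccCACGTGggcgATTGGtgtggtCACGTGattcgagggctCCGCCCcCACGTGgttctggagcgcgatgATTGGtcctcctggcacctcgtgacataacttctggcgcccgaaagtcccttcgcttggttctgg

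The median number of CG dinucleotides over 32851 RefSeq mouse promoters of this length was 7. The promoter of Klhl33 held 5, that of Rnase9 held 3, that of Pnp held 12 and that of Osgep held 27. The window of Apex1, which overlaps that of Osgep on the opposite strand, held 31. Klhl33 matched none of the 6 motifs, also in the window of its second listed start (2 CG dinucleotides). Rnase9 held 2 matches to CCAAT, Pnp held 1 to CCAAT and 1 to GGGCGG, and Osgep held 3 to CACGTG, 2 to CCAAT and 1 to GGGCGG. Over all promoters, 37.4% held CCAAT, 35.7% GGGCGG, 13.6% TATAAA, 7.15% CACGTG, 7.06% TAATCC and 5.2% TGACTCA. Since Klhl33 matched none of the 6 motifs, no motif could be common to the printed promoters of the 3 genes that rose. Rnase9 and Pnp both held CCAAT, as did 37.4% of all promoters.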

How the data were processed

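The authors deposited whole-number counts per gene symbol for all 9 pools, with a program that the sources used here do not name. Their totals exceed the stated 42.7 ± 3.9 M reads per sample. The authors' deposited transcript TPM came from Trimmomatic 0.39 and kallisto 0.46.1 on GRCm38, per the submitters' processing notes. It was treated as a relative signal, because the deposited columns sum to 953963 to 1083980, so the authors rescaled them. Of 118489 TPM rows, 1861 without a usable symbol were left out. The authors' deposited sleuth 0.30.8 table holds q-values and effects on the natural log scale, positive where higher in wildtype, and these were turned into log2.

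Counts were tested with edgeR 4.0.16 (R 4.3.3; filterByExpr, TMM, quasi-likelihood F test, two-sided), and CPM used the TMM-scaled sizes of the filtered libraries. TPM rows were tested by limma 3.58.1 where 4 or more pools reached a TPM of 1, on log2(TPM + 0.5), a scale that understates changes of low rows. Both used Benjamini-Hochberg adjustment over all features and a threshold of 0.05, and were tested on simulated data. SEs of edgeR were computed from the fold change and F. Pools share replicate numbers that name no common litter, so genotype was the only term. Alternatives were DESeq2 1.42.0, other scalings, filters and pseudocounts, each pool left out, and a replicate block. Copies were searched with BLAST 2.17.0 (megablast, at least 95% identity over 50% of a transcript) in GENCODE M21. Floors cover counting error only, while SDs and SEs include the spread between pools. The named genes were the 7 genes, Opn4, all genes inside the stretch, its nearest tested neighbours, called genes of the lists and the 5 genes most like Klhl33 and Rnase9; Vmn2r89, Rpph1, Rnase11, Ccnb1ip1 and further neighbours were named after their values were seen. Members, lists and tests were chosen with earlier results of these data known.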

Additional observations from a re-analysis of the deposited data

Results flagged for a closer look

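In 4 of the 50 groups of pools examined (each gene or transcript row in each genotype), 1 pool stood far from the others of its genotype, and chance alone gives about 1 in 20. In knockout, Osgep row 1 measured 12.7 TPM in pool 3 and 6.08 to 7.79 TPM in the others. Osgep row 5 measured 6.79 TPM in knockout pool 1 and 13.9 to 15.0 TPM in the other knockout pools. Apex1 row 3 measured 23.4 TPM in knockout pool 4, against 11.9 to 13.7 TPM in the other knockout pools, and 12.6 TPM in wildtype pool 4, against 8.18 to 8.91 TPM in the other wildtype pools. None of the 3 rows passed the test between genotypes.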

How the results depend on the processing

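The number of genes that passed was 760 by edgeR, 1491 by DESeq2 (744 shared), and 486 without knockout pools 1 and 2 (409 shared); it was 524 to 859 with single pools left out. Over 17 alternatives, the log2 fold change ranged from 1.82 to 2.36 for Klhl33 and from 3.37 to 5.83 for Rnase9. Osgep ranged from −0.06 to 0.34 and Apex1 from −0.10 to 0.03, the first below 0 without knockout pools 1 and 2, the other above 0 without wildtype pool 3. Pnp (0.27 to 0.93) and Pnp2 (0.41 to 1.20) lost their calls in TPM summed per gene only.

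Transcript calls were fragile: 86 rows passed over all pools, 9 to 102 with single pools left out, and 0 without knockout pools 1 and 2. That last alternative was added after the data were seen, and fewer pools remain in it. The row of Rnase9 was not tested there, as too few pools reached a TPM of 1. Klhl33 row 3 kept its call in 6 of 14 alternatives, row 4 in 3 and Osgep row 8 in 2. Gm49342 kept it in 12 of 14, and Rnase9 in 12 of 13. Rnase9 entered this test through its knockout pools alone, at 3.98 to 9.56 TPM, against 0.124 to 0.269 TPM in wildtype. The kept calls describe rows of the picked stretch and are no independent support.

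Pools with the same replicate number did not deviate together (r from −0.03 to 0.01), so the numbers do not pair the pools. With the replicate block, over 4 pools of each genotype, 915 genes passed (622 shared) and 2 transcript rows. Without the block, the same 8 pools gave 859 genes. Under the block, Gm49342 had an adjusted p of 0.0892 by limma, again as a description of a gene in the picked stretch. The depth limits Rnase10 and wildtype Rnase9, both near 0.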
